A study of Homo sapiens with 10 samples.

Results

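The cadherin superfamily was followed in the established synovial sarcoma line HS-SY-II, of human origin, during exposure to WA-68, a PROTAC that marks the bromodomain protein BRD9 for degradation. Poly(A) RNA came from cells given 100 nM WA-68 for 12, 24, 48 or 96 h and from cells given the DMSO vehicle, with 2 biological replicates in each of the 5 groups and 10 libraries in all. All 5 groups are 1 cell line, and the DMSO group carries no harvest time in the labels. Time with WA-68 and time in culture therefore cannot be told apart. The members were protein-coding genes named CDH with a number, PCDH, FAT1 to FAT4, DCHS1, DCHS2 or CELSR1 to CELSR3, without CDH1 and CDH2, selected on a mean CPM (read count scaled to the library total) of 1 or more over the 10 libraries. Of 63140 gene identifiers in the table, 96 carried such a protein-coding name and 53 reached that average. The members were thus chosen by their mean level, and the late rise of CDH23 was part of the choice, so its values are given below as a description without a test. The 52 other members were tested.

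Cadherins are membrane proteins whose repeated extracellular domains bind calcium and hold cells together, mostly by pairing with cadherins on the neighbouring cell. Classical cadherins tie to the actin cytoskeleton through catenins, while the giant Fat and Dachsous proteins and the CELSR receptors carry planar polarity and growth signals between cells. Protocadherins lack the catenin tail. Their clustered genes lie in alpha, beta and gamma arrays, in which each variable exon has its own promoter, and a conserved element with the core letters CGCT is known in most of these promoters. In synovial sarcoma the fusion of SS18 with an SSX gene alters BAF chromatin remodelling complexes, and BRD9 belongs to one form of that complex.

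Of the 53 members, 10 were classical and related cadherins, 7 were Fat, Dachsous or CELSR genes, 7 were non-clustered protocadherins, 9 were beta and 19 were gamma protocadherins, and the last was CDH23. The remaining 43 family genes averaged under 1 CPM, and 12 of them had no count in any library. All 15 alpha protocadherins fell below the threshold, with 40 counts in total over the 10 libraries. Just inside the threshold lay PCDHB9 at 1.16, PCDHB10 at 1.33 and CDH10 at 1.36 CPM, and just outside it PCDH20 at 0.928, PCDHB8 at 0.916 and PCDHGC4 at 0.842 CPM. CDH5, the cadherin of endothelial junctions, had 2 counts in all, and PCDH15, the inner ear partner of CDH23, averaged 0.417 CPM. CDH1, the epithelial cadherin that the rule leaves out, also had 2 counts in all. All 53 members passed the edgeR filter on low counts. CDH10, CDH18 and PCDHB9 averaged 0.957, 0.859 and 0.704 CPM in DMSO. They reached the threshold through treated libraries, so the rule favours a rise in them.

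Total counts per library ran from 7349744 to 13200051. The 96 h replicate 2 and DMSO replicate 2 libraries stood apart on the second principal component, at -26.01 and -24.18, while the other 8 libraries lay between -0.71 and 14.39. Leaving out both leaves 1 DMSO library and 1 library at 96 h. Every comparison with DMSO then rests on 1 DMSO library, and 96 h against DMSO is 1 library against 1. Some calls were lost and others gained in that fit, and its log2 differences stand beside the genes. Of the markers, the 4 endothelial genes summed to at most 0.195 CPM and the 4 leukocyte genes to at most 0.346 CPM in any library, with PECAM1, PTPRC and CD3E at 0 counts throughout. The 5 epithelial genes summed to 4.30 and 8.12 CPM at 96 h, against 2.17 and 4.01 CPM in DMSO, and their part in the results was not tested. BRD9 transcript, which a protein degrader need not alter, stood at 88.0 and 89.0 CPM at 96 h, against 99.8 and 107.8 CPM in DMSO. The 8 synovial sarcoma genes summed to between 1430 and 1594 CPM, but single genes in that sum moved in opposite directions. FGFR2 averaged 143.6 CPM in DMSO and 226.1 CPM at 96 h, and ZIC2 92.5 and 66.6 CPM. The 4 mesenchymal genes, CDH2 among them, summed to between 1075 and 1308 CPM. In bulk RNA, a change in the share of cells that express a gene and a change in RNA per cell cannot be told apart.

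The clustered genes are shown first by their promoters, since each is read from its own. Promoter letters come from RefSeq on GRCh38.p14, which held an entry for 40 of the 53 members, each with 250 bases before and 50 after the start. CGCTGTT stood in 11 of 17 gamma promoters, 1 of 8 beta promoters and 0 of the 15 others, and in 2.26% of 35116 promoters in the table. GTGGCGCT stood in 8 of 8 beta promoters, 0 gamma promoters and 0 of the 15 others, and in 1.15% of the table. Both strands were searched, the letters were chosen after the sequences had been seen, and the words overlap in CGCT, which 70.0% of all promoters hold. Below, 4 gamma and 4 beta windows are set under each other, 5′ to 3′ on the plus strand, with the matched letters in capitals and 20 bases on either side. They lie at chr5:141343763-141343809, chr5:141354956-141355002, chr5:141373831-141373877 and chr5:141412927-141412973 for the gamma genes, and at chr5:141094536-141094583, chr5:141100385-141100432, chr5:141121715-141121762 and chr5:141213857-141213904 for the beta genes, in the order printed.
PCDHGA3: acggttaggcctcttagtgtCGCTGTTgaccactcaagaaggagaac
PCDHGA4: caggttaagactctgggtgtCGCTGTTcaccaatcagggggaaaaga
PCDHGA6: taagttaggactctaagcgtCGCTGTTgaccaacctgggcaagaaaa
PCDHGA10: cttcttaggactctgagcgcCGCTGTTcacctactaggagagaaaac
PCDHB2: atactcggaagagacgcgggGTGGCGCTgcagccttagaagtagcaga
PCDHB3: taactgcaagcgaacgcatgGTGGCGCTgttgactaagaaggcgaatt
PCDHB4: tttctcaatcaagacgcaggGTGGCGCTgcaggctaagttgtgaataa
PCDHB13: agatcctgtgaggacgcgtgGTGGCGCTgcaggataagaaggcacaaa
Over all 11 gamma promoters with CGCTGTT the letters began 39 to 199 bases before the listed start, and over the 8 beta promoters with GTGGCGCT 42 to 83 bases before it. Median GC content over 300 bases was 43.0% in gamma and 42.5% in beta promoters, and 58.7% over the whole table. The match is a description of letters and does not show that a factor binds there.

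CDH23, at chr10:71396934-71815947 on the plus strand, encodes a long cadherin that forms the tip link of inner ear hair cells together with PCDH15. Its promoter is printed because its base composition is unlike that of the clustered genes. The 250 bases before the first of 3 listed starts, chr10:71396670-71396919 on the plus strand, hold 34 CpG dinucleotides, set in capitals, at a GC content of 80.8%.
CDH23: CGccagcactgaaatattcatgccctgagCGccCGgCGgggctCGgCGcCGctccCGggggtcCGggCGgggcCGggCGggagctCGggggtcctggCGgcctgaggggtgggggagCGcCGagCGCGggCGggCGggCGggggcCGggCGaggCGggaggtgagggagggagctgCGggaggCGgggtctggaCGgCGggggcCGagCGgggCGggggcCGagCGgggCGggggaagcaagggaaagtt
CDH23 had 27.8 and 32.0 CPM in DMSO, 26.8 and 21.9 CPM at 12 h, 26.9 and 24.7 CPM at 24 h, 39.8 and 42.0 CPM at 48 h, and 64.3 and 60.9 CPM at 96 h, after TMM scaling (trimmed mean of M values). Both libraries at 12 h and both at 24 h lay below both DMSO libraries, and those at 48 and 96 h lay above them. The log2 fold change against DMSO was -0.29 ± 0.12 at 12 h, -0.21 ± 0.12 at 24 h, 0.46 ± 0.12 at 48 h and 1.08 ± 0.11 at 96 h (SE). Between 96 h and 12 h the difference was 1.36 on the log2 scale, a fold of 2.58. Part of its exons, 18.9%, lies opposite C10orf105, which had 0 counts in all 10 libraries.

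Few members were called against DMSO in the first day and more at 48 and 96 h, and all calls but that of PCDH7 were upward. With edgeR's quasi-likelihood test, Benjamini-Hochberg adjustment over 16382 genes and a threshold of 0.05, 1 of the 52 members was higher and 0 were lower at 12 h, when 1.23% and 1.92% of all genes tested were called higher and lower. At unadjusted p under 0.05, 5 members were higher and 5 lower at 12 h, and DESeq2 called 0 higher and 1 lower. At 24 h edgeR again called 1 higher and 0 lower, beside 1.34% and 2.25% of all genes. The counts at unadjusted p were 5 and 2 there, and DESeq2 called 1 and 1. At 48 h 6 members were higher and 0 lower, beside 4.01% and 5.38% of all genes, with 12 and 3 at unadjusted p and 5 and 1 by DESeq2.

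At 96 h 10 members were higher and 1 was lower, which is 19.2% and 1.92% of the 52, beside 6.14% and 6.86% of all genes tested. Among the 20 members with a mean of 10 CPM or more, 9 were higher and 1 was lower. Of the 10473 tested genes at that level, 7.20% were higher and 9.54% lower. Between 96 h and 12 h 4 members were higher and 0 lower, beside 2.39% and 1.76% of all genes. There 16 members were higher and 0 lower at unadjusted p under 0.05, and DESeq2 called 4 and 0. Wherever DESeq2 called a member lower, it was PCDH7. The median log2 fold change of the 52 members was 0.08, 0.03, 0.17 and 0.20 at 12, 24, 48 and 96 h against DMSO, while that of all genes tested lay between -0.0083 and -0.0009. The 4 comparisons against DMSO share the same 2 DMSO libraries.

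**Figure D1:**
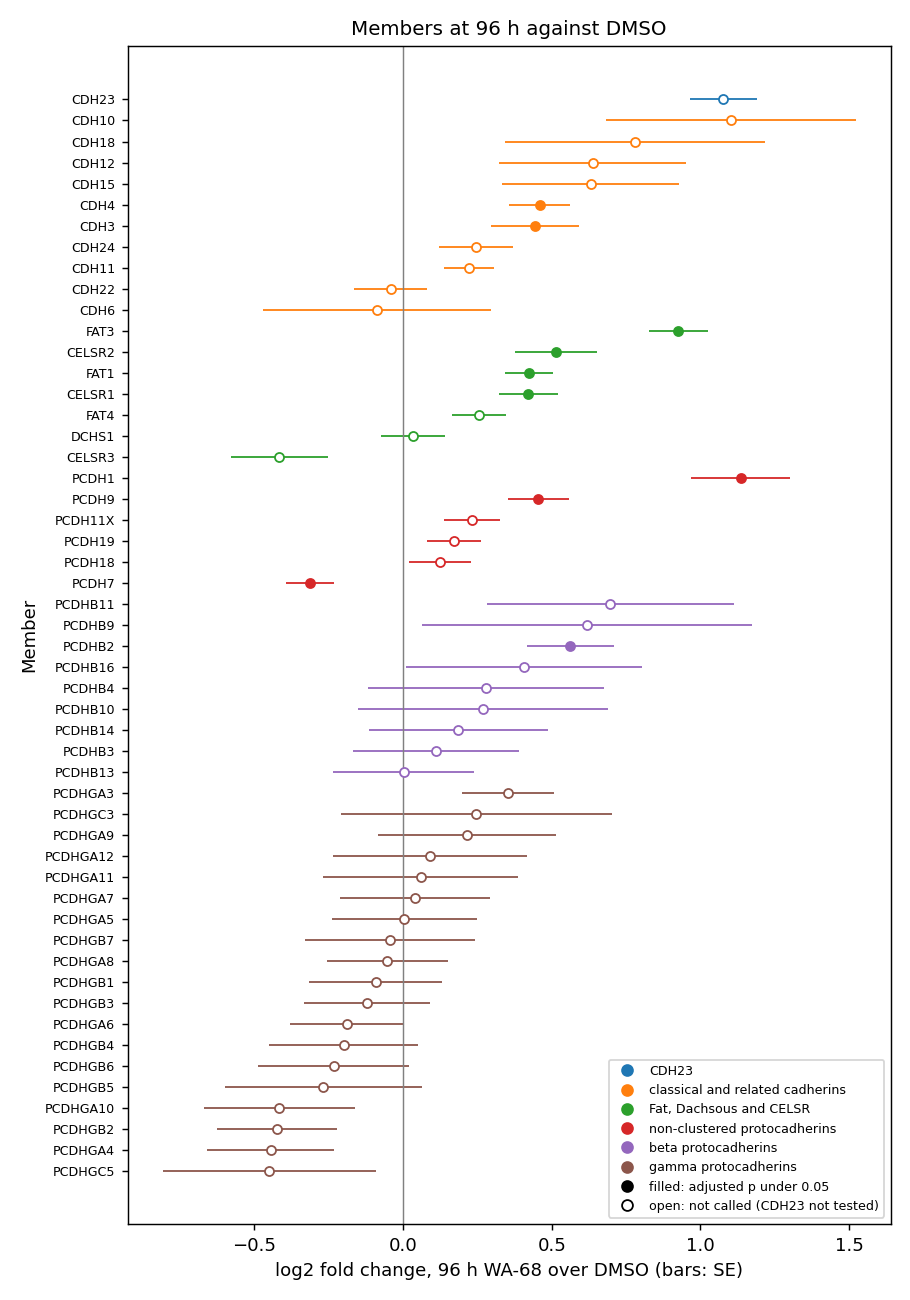
log2 fold change at 96 h of WA-68 over DMSO for 52 of the 53 members (PCDH11Y is not drawn), ordered within each subgroup; points are edgeR estimates and bars their SE, and filled points passed an adjusted p of 0.05. The called members of the Fat and CELSR group and PCDH1 stand to the right of 0, PCDH7 to the left, and the 19 gamma protocadherins, all open, lie between -0.45 and 0.35.

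In the Fat, Dachsous and CELSR group 4 of 7 members were higher and 0 lower at 96 h against DMSO, beside 6.14% and 6.86% of all genes tested. Its median log2 fold change was 0.10, 0.08, 0.22 and 0.42 at 12, 24, 48 and 96 h. FAT3, a giant cadherin that shapes neuronal processes in mouse, had 41.2 and 45.0 CPM in DMSO, 53.5 and 53.4 CPM at 12 h, 49.5 and 48.2 CPM at 24 h, 63.6 and 58.9 CPM at 48 h, and 76.7 and 87.2 CPM at 96 h. Every treated library lay above both DMSO libraries. FAT3 was higher at 48 h by 0.51 ± 0.10 on the log2 scale (SE, edgeR adjusted p = 0.00203) and at 96 h by 0.93 ± 0.10 (edgeR adjusted p = 8.61e-07). It was also higher at 96 h than at 12 h, by 0.61 ± 0.10 (edgeR adjusted p = 0.00056), and kept these 3 calls without each library in turn. At 12 h the FAT3 difference was 0.37 without both libraries that stood apart, against 0.31 with them (edgeR adjusted p = 0.1).

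FAT1, at chr4:186587783-186726722, encodes a giant cadherin that acts on actin and cell polarity and was the most abundant member. It had 933 and 984 CPM in DMSO, 1023 and 1037 CPM at 12 h, 1016 and 1006 CPM at 24 h, 1087 and 1058 CPM at 48 h, and 1201 and 1371 CPM at 96 h. Per kilobase of exon the mean level was 79.5 CPM at 96 h, against 59.2 CPM in DMSO. FAT1 was higher at 96 h by 0.42 ± 0.08 on the log2 scale (SE, edgeR adjusted p = 0.000838), a fold of 1.34, and its 2 libraries at 96 h were above all the others. Between 96 h and 12 h the difference was 0.32 ± 0.08 (edgeR adjusted p = 0.0234), and without 96 h replicate 2, either 12 h library or 24 h replicate 1 it was not called, the highest adjusted p being 0.237. At 48 h the difference of 0.16 was not called (edgeR adjusted p = 0.234), and it was 0.20 without both libraries that stood apart.

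Of the CELSR receptors, the mammalian relatives of the fly polarity protein Flamingo, CELSR1 and CELSR2 were called higher. CELSR1 had 45.3 and 52.1 CPM in DMSO, 53.5 and 54.5 CPM at 12 h, 60.6 and 55.4 CPM at 24 h, 60.6 and 65.6 CPM at 48 h, and 65.9 and 64.0 CPM at 96 h. All 8 treated libraries lay above both DMSO libraries, and the gene was higher by 0.38 ± 0.10 at 48 h (edgeR adjusted p = 0.0175) and 0.42 ± 0.10 at 96 h (edgeR adjusted p = 0.0054). The 48 h call was lost without DMSO replicate 1 or either 48 h library, with an adjusted p of up to 0.192, and the 96 h call without DMSO replicate 1, with an adjusted p of 0.0668. Without both libraries that stood apart CELSR1 was also called higher at 24 h (0.35 ± 0.09, edgeR adjusted p = 0.0161, against 0.179 with them) and at 96 h over 12 h (0.29 ± 0.09, edgeR adjusted p = 0.044, against 0.147).

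CELSR2 had 18.4 and 23.6 CPM in DMSO, 21.2 and 23.3 CPM at 12 h, 23.1 and 19.2 CPM at 24 h, 23.4 and 28.1 CPM at 48 h, and 29.5 and 29.7 CPM at 96 h. The 96 h libraries were the highest of the 10, and CELSR2 was higher there by 0.51 ± 0.14 (SE, edgeR adjusted p = 0.0136), though without DMSO replicate 1 the difference was 0.32 with an adjusted p of 0.201. At 48 h the difference of 0.31 was not called (edgeR adjusted p = 0.186), and it was 0.48 without both libraries that stood apart. CELSR3 had between 10.2 and 13.9 CPM in the 8 treated libraries, against 15.2 and 17.3 CPM in DMSO. All 8 were below both DMSO libraries, yet its log2 differences of -0.42, -0.45, -0.47 and -0.41 had edgeR adjusted p from 0.0742 to 0.189.

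FAT4 and DCHS1 form a receptor and ligand pair in planar polarity. FAT4 had 119.5 and 131.6 CPM at 96 h, against 101.1 and 109.1 CPM in DMSO, a log2 difference of 0.26 ± 0.09 (SE) with an edgeR adjusted p of 0.0668. DCHS1 had 95.7 and 100.9 CPM at 96 h, against 83.2 and 109.6 CPM in DMSO, and the DMSO libraries enclosed the treated ones. Neither was called at any time. FAT4 had a difference of 0.22 at 48 h (edgeR adjusted p = 0.143), and of 0.28 without both libraries that stood apart. FAT2 and DCHS2 were below the threshold.

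**Figure D2:**
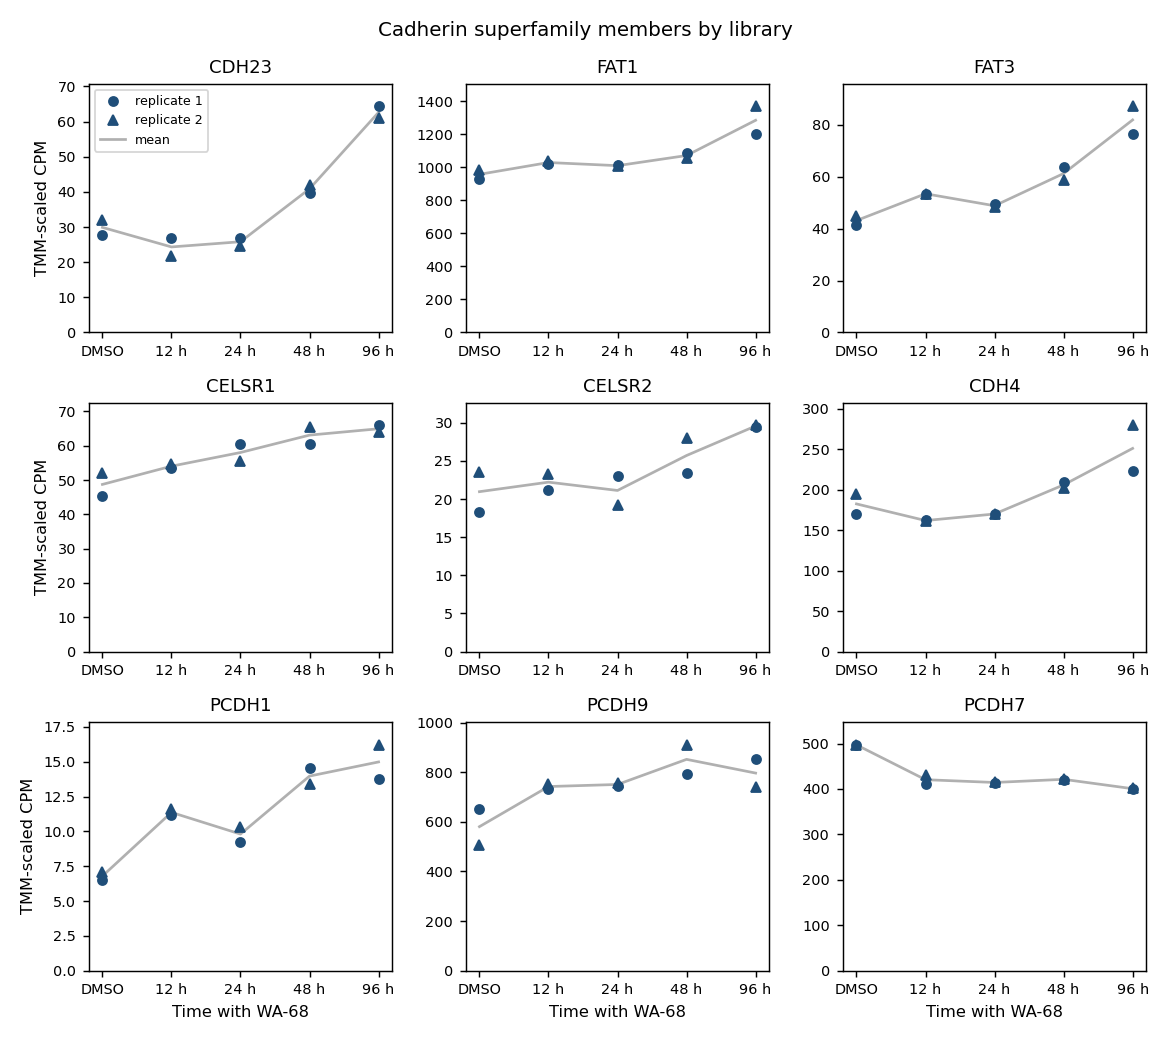
TMM-scaled CPM of 9 members in each of the 10 libraries, with DMSO at the left followed by 12, 24, 48 and 96 h evenly spaced; circles are replicate 1, triangles replicate 2 and lines join group means. CDH23 and CDH4 lie below DMSO at 12 h and above it at 96 h, PCDH1 and FAT3 lie above DMSO at every time, and PCDH7 lies below it at every time.

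Of the 10 classical and related cadherins, CDH4 and CDH3 were higher at 96 h and CDH12 at 48 h, and 0 were lower in any comparison. Of all genes tested 4.01% were higher at 48 h and 6.14% at 96 h. Their median log2 fold change was 0.03, 0.06, 0.29 and 0.45 at 12, 24, 48 and 96 h. CDH4 encodes R-cadherin, the retinal relative of N-cadherin, and lies at chr20:61252426-61940617. It had 170.3 and 194.3 CPM in DMSO, 162.2 and 161.3 CPM at 12 h, 170.2 and 169.5 CPM at 24 h, 209.7 and 201.8 CPM at 48 h, and 222.4 and 279.2 CPM at 96 h. The 12 and 24 h libraries lay below the DMSO ones and the 48 and 96 h libraries above them. CDH4 was higher at 96 h by 0.46 ± 0.10 against DMSO (edgeR adjusted p = 0.00317) and by 0.63 ± 0.10 against 12 h (edgeR adjusted p = 0.000624). The first of these was not called without 96 h replicate 2, when it was 0.29 with an adjusted p of 0.085, while the second was kept without each library in turn. At 48 h the CDH4 difference was 0.18 (edgeR adjusted p = 0.319), and 0.27 without both libraries that stood apart.

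CDH3, or P-cadherin, had 21.2 and 19.7 CPM in DMSO, 18.4 and 22.3 CPM at 12 h, 18.8 and 23.5 CPM at 24 h, 25.1 and 24.7 CPM at 48 h, and 24.0 and 32.8 CPM at 96 h. It was higher at 96 h by 0.45 ± 0.15 (SE, edgeR adjusted p = 0.0472), and without both libraries that stood apart the difference was 0.18 with an edgeR adjusted p of 0.525. Leaving out any one of 5 libraries (either DMSO or 48 h replicate, or 96 h replicate 2) also ended the call, with adjusted p of up to 0.442, and DESeq2 gave 0.114. The difference was 0.22 without 96 h replicate 2 and 0.68 without 96 h replicate 1. CDH3 and the epithelial marker sum were both highest in 96 h replicate 2, and whether they are linked was not tested. Of its exon bases 11.1% lie opposite CDH3-AS1.

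CDH12, a neural type II cadherin, had 2.25 and 1.65 CPM in DMSO, 3.79 and 2.98 CPM at 12 h, 2.88 and 3.03 CPM at 24 h, 4.49 and 3.32 CPM at 48 h, and 3.46 and 2.66 CPM at 96 h. All treated libraries were above both DMSO ones. Its difference at 48 h was 0.97 ± 0.31 on the log2 scale (SE, edgeR adjusted p = 0.0461), which was lost without any one of 8 libraries, every one but the 96 h pair, with adjusted p of up to 0.326. DESeq2 gave 0.187. Without both libraries that stood apart it was 0.80 with an edgeR adjusted p of 0.141.

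CDH11, the cadherin of osteoblasts and of the synovial lining, had the highest CPM of the classical members. Per kilobase of exon CDH4 was higher, with a mean of 24.8 CPM in DMSO, against 20.3 CPM for CDH11. CDH11 had 308.8 and 325.4 CPM at 96 h, against 263.6 and 279.5 CPM in DMSO. The 6 libraries in between in time lay from 261.0 to 274.2 CPM. The 96 h difference of 0.22 ± 0.08 (SE) had an edgeR adjusted p of 0.0828. DESeq2 called it, with an adjusted p of 0.0437, as it did the difference between 96 h and 12 h (0.0457, against 0.0971 by edgeR). CDH10, CDH15 (M-cadherin of muscle precursors), CDH18, CDH22, CDH24 and CDH6 were not called in any comparison. Their means ran from 1.36 CPM for CDH10 to 53.0 CPM for CDH22. The 96 h difference of CDH24 was 0.25 (edgeR adjusted p = 0.213), and 0.45 without both libraries that stood apart.

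Of the 7 non-clustered protocadherins, 6 were called in at least 1 of the 5 comparisons and PCDH19 in none, beside 17.6% of all genes tested that were called in at least 1. Their median log2 fold change was 0.12, 0.16, 0.36 and 0.23 at 12, 24, 48 and 96 h. PCDH1, which mediates adhesion in airway epithelium, lies at chr5:141853111-141879246 on the minus strand, outside the clustered arrays. It had 6.51 and 7.07 CPM in DMSO, 11.2 and 11.6 CPM at 12 h, 9.27 and 10.3 CPM at 24 h, 14.5 and 13.4 CPM at 48 h, and 13.7 and 16.2 CPM at 96 h. No treated library overlapped the DMSO libraries. PCDH1 was higher by 0.75 ± 0.17 on the log2 scale at 12 h (edgeR adjusted p = 0.0163), 1.05 ± 0.17 at 48 h (edgeR adjusted p = 0.000352) and 1.13 ± 0.17 at 96 h (edgeR adjusted p = 5.42e-05). At 24 h the difference was 0.54 ± 0.18 (edgeR adjusted p = 0.0913). The 48 and 96 h calls were kept without each library in turn, and the 12 h call was lost without DMSO replicate 1 or either 12 h library, with an adjusted p of up to 0.16. DESeq2 gave 0.0686 at 12 h.

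PCDH9, a delta protocadherin of the nervous system, had 653 and 508 CPM in DMSO, 731 and 754 CPM at 12 h, 744 and 758 CPM at 24 h, 792 and 912 CPM at 48 h, and 853 and 740 CPM at 96 h. All treated libraries lay above both DMSO libraries. PCDH9 was higher by 0.37 ± 0.10 at 24 h (edgeR adjusted p = 0.0441), 0.55 ± 0.10 at 48 h (edgeR adjusted p = 0.00123) and 0.46 ± 0.10 at 96 h (edgeR adjusted p = 0.00365). The 48 h call held without each library in turn. Without DMSO replicate 2 the differences were 0.29 at 96 h (adjusted p = 0.0518) and 0.20 at 24 h, and without DMSO replicate 1 that at 24 h was 0.56. The 24 h call was lost without DMSO replicate 2 or any 12 or 24 h library, with an adjusted p of up to 0.331. Without both libraries that stood apart the 24 h difference was 0.20 (edgeR adjusted p = 0.0734).

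PCDH7 was the single member called lower. It had 496 and 498 CPM in DMSO, 411 and 430 CPM at 12 h, 414 and 414 CPM at 24 h, 420 and 423 CPM at 48 h, and 400 and 402 CPM at 96 h. All 8 treated libraries were below both DMSO libraries, and the decrease of 0.31 ± 0.08 on the log2 scale at 96 h (a log2 fold change of -0.31, SE, edgeR adjusted p = 0.0102) was kept without each library in turn. At 12, 24 and 48 h the log2 differences of -0.24, -0.26 and -0.24 had edgeR adjusted p from 0.0618 to 0.109. DESeq2 called PCDH7 lower at these times too (adjusted p from 0.0176 to 0.0368). Without both libraries that stood apart the edgeR differences were -0.24, -0.26 and -0.24.

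PCDH11X had 59.4 and 54.4 CPM in DMSO, 54.7 and 60.04 CPM at 12 h, 58.9 and 57.3 CPM at 24 h, 71.0 and 75.4 CPM at 48 h, and 66.9 and 67.2 CPM at 96 h. It was higher at 48 h by 0.36 ± 0.09 (SE, edgeR adjusted p = 0.0166), a call lost without DMSO replicate 2 or either 48 h library, with an adjusted p of up to 0.172. Its near-identical copy PCDH11Y was higher at 96 h by 1.27 ± 0.30 (SE, edgeR adjusted p = 0.00563, and 0.099 without DMSO replicate 1), and reads of the pair may have been split between them.

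PCDH18, a delta protocadherin, had 42.6 and 39.6 CPM in DMSO, 32.9 and 36.6 CPM at 12 h, 35.3 and 35.7 CPM at 24 h, 39.1 and 42.4 CPM at 48 h, and 45.7 and 44.1 CPM at 96 h. The 12 and 24 h libraries were the lowest and the 96 h libraries the highest. PCDH18 was called in the comparison of 96 h with 12 h alone, by 0.37 ± 0.11 (SE, edgeR adjusted p = 0.0485). That call was lost without any one of the 8 WA-68 libraries, with adjusted p of up to 0.424, and DESeq2 gave 0.129. PCDH19, a delta protocadherin that pairs with N-cadherin, had 377.1 and 434.0 CPM at 96 h, against 348.9 and 370.8 CPM in DMSO, and was not called.

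**Figure D3:**
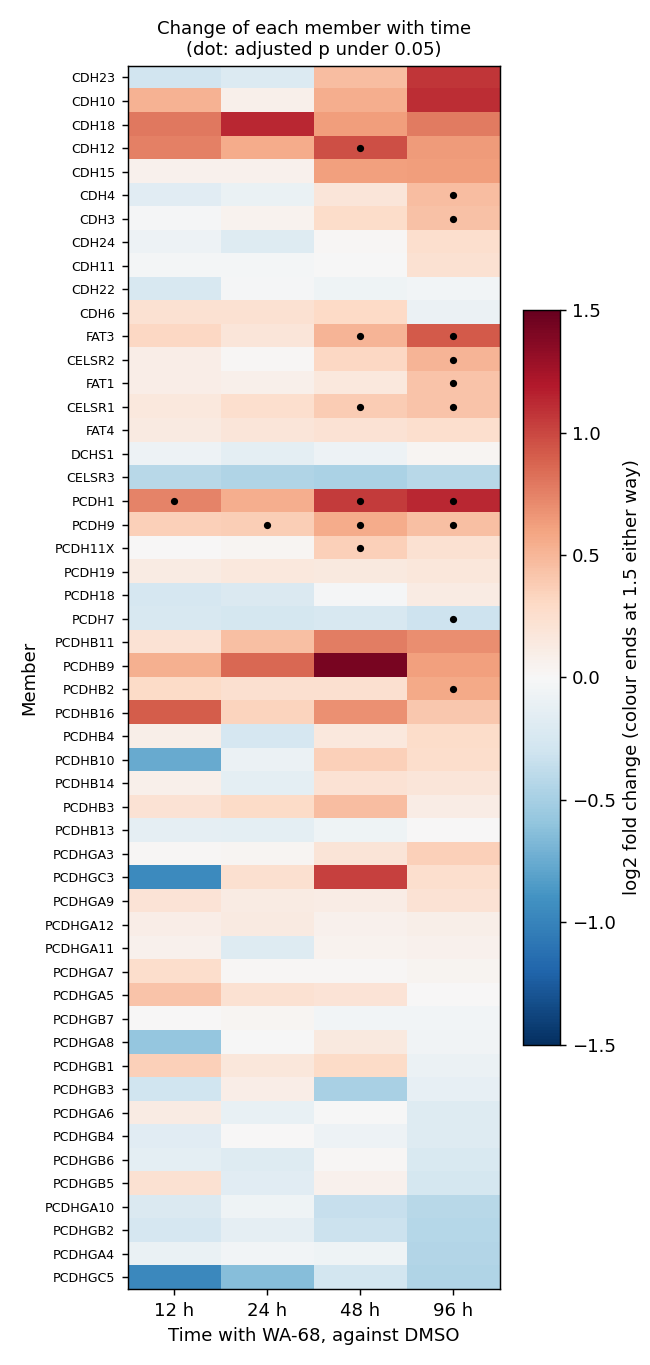
log2 fold change of 52 of the 53 members (PCDH11Y is not drawn) against DMSO at 12, 24, 48 and 96 h, in the order of the plot of the 96 h changes; red is higher and blue lower, and a dot marks an adjusted p under 0.05 (CDH23 was not tested). The dots number 1 at 12 h, 1 at 24 h, 6 at 48 h and 10 at 96 h (9 higher and PCDH7 lower), and none lies in the gamma rows.

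Of the 9 beta protocadherins, which lack the constant exons shared by the gamma genes, PCDHB2 was higher at 96 h and none was called at another time, beside 6.14% of all genes tested higher at 96 h. Their median log2 fold change was 0.21, 0.24, 0.36 and 0.28 at 12, 24, 48 and 96 h. Together they summed to 29.8 and 31.7 CPM in DMSO, 32.4 and 37.0 CPM at 12 h, 35.8 and 31.9 CPM at 24 h, 34.6 and 41.3 CPM at 48 h, and 37.5 and 41.3 CPM at 96 h. All 8 treated sums lay above both DMSO sums. PCDHB2 had 11.7 and 11.4 CPM in DMSO, 13.6 and 14.8 CPM at 12 h, 14.7 and 12.9 CPM at 24 h, 13.7 and 13.7 CPM at 48 h, and 16.2 and 18.3 CPM at 96 h. Its treated libraries were all above its DMSO libraries, and it was higher at 96 h by 0.56 ± 0.15 (SE, edgeR adjusted p = 0.0111). Without 96 h replicate 2 that adjusted p was 0.0855, and DESeq2 gave 0.0577.

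PCDHB3, PCDHB4, PCDHB9, PCDHB10, PCDHB11, PCDHB13, PCDHB14 and PCDHB16 averaged between 1.16 and 5.33 CPM. In the 5 comparisons edgeR called 0 of these 8, and DESeq2 called 0 of the 9. At unadjusted p under 0.05 PCDHB16 was higher at 12 h, PCDHB9 at 48 h and PCDHB10 at 96 h against 12 h. PCDHB9 averaged 0.704 CPM in DMSO and 1.79 CPM at 48 h, so it reached the threshold through treated libraries, which favours a rise. Its 48 h difference was 1.42 ± 0.50 (SE, edgeR adjusted p = 0.0763), and 1.91 without both libraries that stood apart. The median SE of the 32 tested members under 10 CPM was 0.30 on the log2 scale at 96 h, against 0.10 for the 20 at or above it, so the test resolved small differences less well in these 8 genes. They are close paralogs, and reads may have been split among them.

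The 19 gamma protocadherins showed no call in any comparison, by edgeR or by DESeq2, beside 17.6% of all genes tested that edgeR called in at least 1. All but PCDHGA3 averaged under 10 CPM. The median SE of all 32 tested members under 10 CPM was 0.30 to 0.32 on the log2 scale. At 96 h against DMSO the gamma SEs ran from 0.15 for PCDHGA3 to 0.46 for PCDHGC3, with many below that median. At unadjusted p under 0.05 edgeR gave 2 lower at 12 h, none at 24 h, 1 higher and 1 lower at 48 h, 1 higher and 2 lower at 96 h, and 3 higher at 96 h against 12 h. Their median log2 fold change was 0.00 at 12 and 24 h, 0.02 at 48 h and -0.09 at 96 h. The 19 summed to 99.0 and 116.6 CPM in DMSO, 99.7 and 110.5 CPM at 12 h, 117.7 and 96.4 CPM at 24 h, 107.2 and 109.5 CPM at 48 h, and 95.0 and 111.4 CPM at 96 h. The sums of every treated group overlapped those of DMSO.

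PCDHGA3 was the most abundant gamma gene, with 18.5 and 24.8 CPM at 96 h, against 14.7 and 19.2 CPM in DMSO, a log2 difference of 0.35 ± 0.15 (SE, edgeR adjusted p = 0.139). PCDHGA4 and PCDHGB2 had log2 differences of -0.44 ± 0.21 and -0.42 ± 0.20 at 96 h (edgeR adjusted p = 0.188 and 0.182). The other gamma members were PCDHGA5, PCDHGA6, PCDHGA7, PCDHGA8, PCDHGA9, PCDHGA10, PCDHGA11, PCDHGA12, PCDHGB1, PCDHGB3, PCDHGB4, PCDHGB5, PCDHGB6, PCDHGB7, PCDHGC3 and PCDHGC5. Their means lay between 1.47 and 9.05 CPM. All gamma transcripts end in the same constant exons. With these and other overlaps, 27.6% to 64.4% of the annotated exon bases of each gene also lie in exons of same-strand genes. Each gene had 21 such partners, not all of which share every one of these bases. Reads from those bases cannot be given to one gene.

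**Figure D4:**
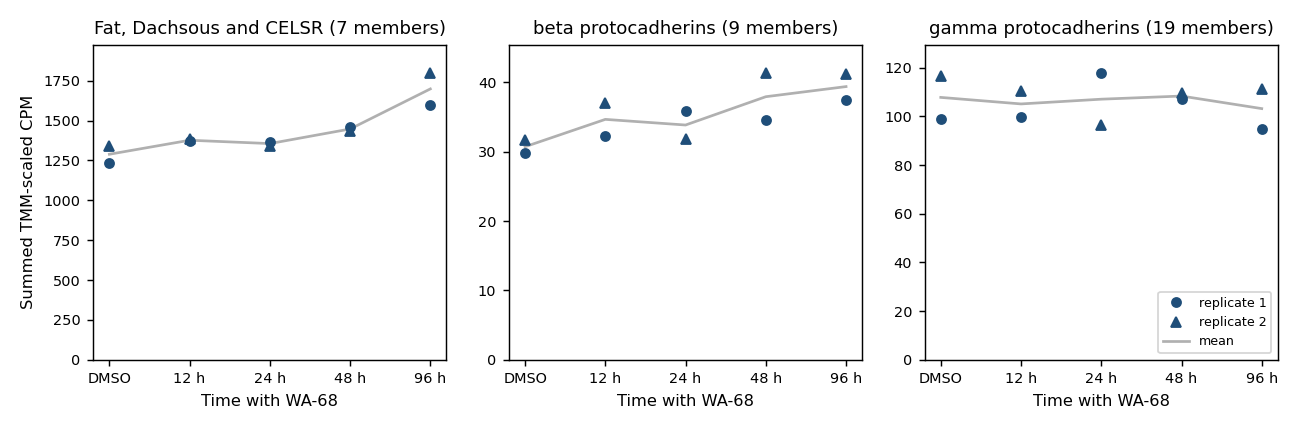
Summed TMM-scaled CPM of the 7 Fat, Dachsous and CELSR members, the 9 beta and the 19 gamma protocadherins in each library, with DMSO at the left followed by 12, 24, 48 and 96 h; circles are replicate 1, triangles replicate 2 and lines join group means. The first sum is highest at 96 h (1601 and 1797 CPM, against 1237 and 1341 CPM in DMSO), every treated beta sum is above DMSO, and the gamma sums overlap at all times.

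Genes that act with cadherins were taken from 8 lists, and only listed genes that passed the filter on low counts were tested. Of the 9 catenins and plakophilins tested, edgeR called 2 higher and 0 lower at 96 h, with a list median of 0.04 on the log2 scale. Of all genes tested 6.14% were higher and 6.86% lower at that time, which bears on each list count below. The 2 called were AFDN, an actin linker at junctions, and JUP, plakoglobin. AFDN averaged 112.0 CPM in 96 h cells and 78.2 CPM in DMSO (log2 difference 0.52 ± 0.09, edgeR adjusted p = 0.000267). JUP averaged 174.9 CPM in 96 h cells and 129.8 CPM in DMSO (0.43 ± 0.13, edgeR adjusted p = 0.0226). Its libraries had 155.8 and 194.1 CPM at 96 h and 112.1 and 147.6 CPM in DMSO. DESeq2 called 1 of the 9 genes higher at 96 h. Of 15 planar polarity genes 1 was higher and 1 lower at 96 h, with a list median of -0.03. PRICKLE1 had a log2 difference of 0.54 ± 0.13 (edgeR adjusted p = 0.00652) and SCRIB one of -0.31 ± 0.10 (edgeR adjusted p = 0.0384). SCRIB was also lower at 48 h, with a log2 fold change of -0.32 ± 0.10 (edgeR adjusted p = 0.0418).

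Of 16 genes of Fat, Dachsous and Hippo signalling, 2 were higher and 1 lower at 96 h, with a list median of 0.03. FJX1, the relative of the fly Four-jointed kinase that acts on Fat and Dachsous repeats, had 16.5 CPM at 96 h and 26.7 CPM in DMSO. It was lower at 12, 24, 48 and 96 h, with log2 fold changes of -0.60, -0.65, -0.61 and -0.71 (edgeR adjusted p = 0.02, 0.00991, 0.00849 and 0.0016). LATS2, a Hippo kinase, was higher at 96 h by 0.56 ± 0.12 and at 12 h by 0.42 ± 0.12 (edgeR adjusted p = 0.00199 and 0.0488). FRMD6, an upstream Hippo component, was higher at 12, 48 and 96 h, by 0.44 ± 0.11, 0.45 ± 0.12 and 0.37 ± 0.12 (edgeR adjusted p = 0.0335, 0.0136 and 0.0323). Neither was called at 24 h, nor LATS2 at 48 h. DESeq2 called 0 of the 16 higher and 0 lower at 12 h, so the 12 h calls of FJX1, LATS2 and FRMD6 rest on edgeR alone.

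Of 16 genes for promoter choice, among them CTCF and the cohesin subunits, edgeR called 0 at 96 h, with 2 lower at unadjusted p under 0.05, 0 by DESeq2 and a list median of -0.05. At 48 h SMC1A, a cohesin subunit, and DNMT3B, a DNA methyltransferase, were lower, by log2 fold changes of -0.28 ± 0.08 and -0.38 ± 0.12 (edgeR adjusted p = 0.032 and 0.0419). Of 15 signalling partners, with a list median of 0.01, 1 was higher at 96 h, CYFIP2 of the WAVE actin complex, at 8.17 CPM in 96 h cells and 1.84 CPM in DMSO (log2 difference 2.13 ± 0.27, edgeR adjusted p = 8.9e-06).

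Of 14 tip link and Usher partners listed only 6 were tested, with a median of 0.29 at 96 h. USH1C and CLRN1 were among the rest, with 0 counts in all libraries. ESPN, an actin bundler of hair cell stereocilia, was higher at 96 h by 0.46 ± 0.10 (edgeR adjusted p = 0.00261). Of 11 shedding and cleavage genes 3 were higher at 96 h and 0 lower, beside 6.14% and 6.86% of all genes tested and at a list median of 0.14, PCSK6 by 0.53 ± 0.11, MMP14 by 0.41 ± 0.09 and NCSTN by 0.33 ± 0.09 (edgeR adjusted p = 0.00135, 0.00299 and 0.0192). Of 18 other cadherin repeat genes listed only 5 were tested. Of these 3 were higher and 1 lower at 96 h, with a median of 0.49. RET, a receptor kinase, was higher by 1.17 ± 0.14, CLSTN3, a synaptic calsyntenin, by 1.14 ± 0.16 and CDH2, or N-cadherin, by 0.49 ± 0.09 (edgeR adjusted p = 7.03e-06, 2.57e-05 and 0.0006). CDH2 averaged 162.6 CPM in DMSO, and 205.1, 202.5, 208.4 and 227.8 CPM at 12, 24, 48 and 96 h, so most of its rise was present at 12 h. RET averaged 9.19 CPM in DMSO, 12.66 CPM at 12 h and 20.7 CPM at 96 h. CLSTN3 averaged 7.904, 9.945 and 17.38 CPM in the same groups. CDHR3, a cadherin of airway ciliated cells, had a log2 fold change of -0.64 ± 0.13 at 96 h (edgeR adjusted p = 0.00188).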

How the data were processed

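Poly(A)-selected, stranded libraries were read from both ends on a NovaSeq X, per the labels' protocols. The submitters' processing notes name bcl2fastq, FastQC, Trim Galore, cutadapt, STAR, featureCounts and GRCh38. Versions, annotation release and strand setting are not stated there. The deposited table holds raw read counts per gene as whole numbers, without normalization by the authors. Positions and gene types came from GENCODE on GRCh38, and 62541 of 63140 identifiers had a symbol.

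Genes kept by edgeR's filterByExpr (16382) were fitted in edgeR 4.0.16 (R 4.3.3) with 1 mean per group over all 10 libraries and TMM scaling (factors 0.96 to 1.03), with 5 residual and 18.5 prior degrees of freedom and a common BCV (biological coefficient of variation) of 7.17%. Quasi-likelihood F tests were Benjamini-Hochberg adjusted within each comparison over all genes tested, and called under 0.05. The fit was run on simulated counts with the same spread in every gene and no library that stood apart. That setting is simpler than these data, so the run does not measure the error rate here. SEs are the absolute log2 fold change divided by the root of F. Levels are TMM-scaled CPM. Total counts of 7349744 to 13200051 mean that 3 counts are 0.227 to 0.408 CPM, a limit for counting error only. Replicates of one group differed by more than sampling noise (mean chi-square per gene 2.11 to 9.01). The labels call them biological without naming separate cultures, so p-values measure the spread between these samples.

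The members and gene lists were chosen with earlier results of these data known. Every member was named, those called in at least 1 comparison with full values (PCDH11Y by its fold change alone), and from each list up to 4 called genes. Alternatives were RLE factors, library size alone, no filter, DESeq2 1.42.0, a block for replicate number, each library left out, 2 libraries left out together, and 0.5 or 2 CPM as threshold.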

Additional observations from a re-analysis of the deposited data

Results flagged for a closer look

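The 96 h and 12 h groups were compared directly, and 4 members passed. No vehicle group is matched to either time, so time with WA-68 and time in culture cannot be told apart here. The log2 difference was 0.63 for CDH4, 0.61 for FAT3, 0.37 for PCDH18 and 0.32 for FAT1, each higher at 96 h in both libraries than in both 12 h libraries. CDH4 and PCDH18 lay below both DMSO libraries in each 12 h library and above both in each 96 h library, while FAT1 and FAT3 lay above DMSO at both times. CDH23 showed a log2 difference of 1.36 between the same times, with both 12 h libraries below both DMSO libraries and both 96 h libraries above them. That difference was not tested, because the late rise of CDH23 was used to choose the members.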

How the results depend on the processing

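The log2 fold changes of called members and of CDH23 kept their sign under the alternatives run, while the median of all genes, just below 0, was 0.04 to 0.06 against DMSO with library size alone. For members higher at 12 h, the count was 3 with library size alone, 2 without a filter, 0 with DESeq2 and 2 without both libraries that stood apart, and 0 to 2 without each library in turn. For members lower, DESeq2 gave 1 at 12, 24 and 48 h, leaving out both libraries gave 1 at each of these times, no filter gave 1 at 48 h, and leaving out each library gave 0 to 1 at 24 and 48 h. For members higher at 48 h, leaving out both libraries gave 10, and each library in turn gave 3 to 6. Each library in turn gave 0 to 1 higher at 24 h, 6 to 11 at 96 h and 2 to 6 at 96 h against 12 h. Of 23 calls, 9 were kept without each library in turn and 18 had a DESeq2 adjusted p under 0.05. The replicate block kept 22, all but PCDH18 (adjusted p = 0.0626), and so gave 3 in place of 4 higher at 96 h against 12 h. The numbers did not pair the samples, since replicate differences correlated between -0.123 and 0.186 over 10 pairs of groups, with 1 pair over 0.1. A threshold of 0.5 or 2 CPM would give 59 or 43 members. Without both libraries that stood apart, DMSO and 96 h have 1 library each, so calls counted for that fit lean on single libraries. CDH23 at 96 h against DMSO was 1.21 in that fit. Of the members, DESeq2 gave no adjusted p for 5 to 17, depending on the comparison. With 2 libraries per group and few counts, changes of members near 1 CPM are poorly resolved.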
